A study of Mus musculus with 24 samples.

Results

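The genes described here belong to the fibroblast growth factor (FGF) pathway and were followed in the jaws of mouse embryos that lack a TGF-beta receptor in the neural crest. They were the inhibitors Spry1, Spry2, Spry4 and Dusp6, the transcription factors Etv4 and Etv5, the ligands Fgf8 and Fgf10, and the receptors Fgfr1 and Fgfr2. The genes were picked by symbol, 10 of the 18193 genes on the array, and each was read from its brightest probe set over the 24 arrays. The members have 21 probe sets in all. All 10 passed the filter on low values, a log2 level above 6.07 on at least 2 arrays, as did 13837 genes in total. Every level below is a log2 expression value, and every difference is a difference of log2 values.

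The knockout embryos came from crosses of Wnt1cre;Alk5fl/+ with Alk5fl/fl mice on a C57B6 background and had lost Alk5 (Tgfbr1), a type I TGF-beta receptor, in cells that had made Cre from the Wnt1 promoter, the cranial neural crest. Epithelium, endothelium and other cells of the same tissue kept the gene. Mutants were recognised by a cleft palate and a defect of the skull vault, and the controls were littermates whose own alleles are not given in the sources used here. At embryonic day 12.5 total RNA of the distal and proximal mandible and maxilla was put on Affymetrix Mouse430_2 arrays, 4 knockout arrays and 2 control arrays for each of the 4 parts. No label says which samples share an embryo or a pool, so p-values measure only the spread between these samples, which may be technical. In such bulk tissue fewer cells of a type and less RNA per cell cannot be told apart.

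FGF ligands bind receptor tyrosine kinases and heparan sulphate at the cell surface and switch on the Ras-ERK cascade, which induces the ETS factors Etv4 and Etv5 and, as negative feedback, the Sprouty proteins and the ERK phosphatase Dusp6. The levels of these target genes are therefore widely used as a reading of FGF signalling. In the mouse first arch, Fgf8 is made in the epithelium and acts on the neural crest mesenchyme, where it sustains cell survival and the expression of genes such as Lhx6 and Barx1. Fgf10 is made mainly in mesenchyme and acts back on the epithelium through a splice form of Fgfr2.

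The windows of 250 bases before the start of Spry1 (chr3:37639697-37639946, plus strand), Spry2 (chr14:105896820-105897069, minus strand) and Dusp6 (chr10:99262981-99263230, plus strand) are shown because these feedback genes have a RefSeq entry (GRCm38.p6) and differ in how many ETS cores they hold. Each is written 5' to 3' on the strand of its gene, and capitals mark GGAA, the core bound by ETS factors such as Etv4 and Etv5, on either strand (TTCC is GGAA on the other strand).
Spry1: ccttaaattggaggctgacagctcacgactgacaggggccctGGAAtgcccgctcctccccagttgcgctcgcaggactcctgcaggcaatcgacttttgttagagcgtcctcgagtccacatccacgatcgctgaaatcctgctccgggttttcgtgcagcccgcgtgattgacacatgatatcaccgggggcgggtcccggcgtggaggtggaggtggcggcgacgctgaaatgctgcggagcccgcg
Spry2: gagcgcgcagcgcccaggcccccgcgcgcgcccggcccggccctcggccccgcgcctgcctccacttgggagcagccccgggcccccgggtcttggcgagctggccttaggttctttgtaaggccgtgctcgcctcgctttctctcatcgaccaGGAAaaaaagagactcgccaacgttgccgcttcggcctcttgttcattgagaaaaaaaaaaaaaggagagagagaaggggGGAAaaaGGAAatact
Dusp6: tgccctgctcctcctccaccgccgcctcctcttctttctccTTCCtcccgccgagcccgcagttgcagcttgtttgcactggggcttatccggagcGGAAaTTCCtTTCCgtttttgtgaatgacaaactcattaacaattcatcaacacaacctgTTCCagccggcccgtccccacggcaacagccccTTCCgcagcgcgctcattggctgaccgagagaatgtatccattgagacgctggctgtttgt

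The Spry1 window held 1 such core, the Spry2 window 3 and the Dusp6 window 6. The core is short and stood in 93.45% of 32851 promoter windows of this length. A longer form, CCGGAAG, searched on both strands, stood in 0 of the 7 windows of the 6 member genes with an entry and in 6.91% of all windows. Spry4, Etv4, Fgf8 and Fgfr1 had no entry.

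The knockout arrays fell into a pair of sets that stood apart from each other. The spike-in hybridisation controls averaged 11.07 to 12.01 on knockout arrays numbered 1 and 2, 8.76 to 9.25 on knockout arrays numbered 3 and 4, and 9.79 to 10.83 on control arrays. Probe sets at the 3' end of Gapdh and beta-actin exceeded those at the 5' end, a sign of RNA quality, by 0.71 to 1.498 on knockouts 1 and 2, 0.00 to 0.16 on knockouts 3 and 4, and 0.13 to 0.22 on controls. Xist read female on 4 of 8, 4 of 8 and 0 of 8 arrays of these sets. In knockout 1 and in knockout 2 the proximal maxilla read as the other sex than the remaining 3 parts of its number. A number is thus not always 1 embryo. Means over both numbers do not depend on this, but their SEs and the fits without knockout 1 or knockout 2 do. Controls form a single set, so set and genotype cannot be told apart, and each knockout result is given for both sets. Tgfbr1 ran from 12.07 to 12.64 in knockouts 1 and 2, from 12.315 to 12.52 in knockouts 3 and 4 and from 11.98 to 12.695 in controls. Whether its probes lie in the deleted part is not known, so it checks no label. Neural crest mesenchyme markers, 7 of 7 above the filter level, averaged 11.83 in knockouts 1 and 2, 12.11 in knockouts 3 and 4 and 11.97 in controls.

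Spry4, an inhibitor of receptor tyrosine kinase signalling, was lower in the knockout jaws of both array sets. In the distal mandible it read 7.57, 7.32, 7.88 and 7.59 in knockouts 1 to 4, against 8.86 and 8.37 in the controls. In the proximal mandible it read 7.79, 7.76, 7.83 and 7.64 in knockouts, against 8.66 and 8.33 in controls. In the distal maxilla the knockouts read 7.84, 7.61, 7.66 and 7.67, against 7.9999 and 8.49 in controls. The 3 parts so far show every knockout array below every control array. The proximal maxilla was the same, with 8.21, 7.82, 7.58 and 7.63 in knockouts and 8.55 and 8.75 in controls. The closest pair was knockout 1 and control 1 of the distal maxilla. How many of all genes separate by array in this way was not counted. For means of the 4 parts, 24.1% of all genes showed no overlap between the genotypes.

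Averaged over the 4 parts, Spry4 was 7.85, 7.63, 7.74 and 7.63 in knockouts 1 to 4, against 8.52 and 8.49 in the controls. The difference was -0.79 ± 0.11 (SE) over all parts, and limma with Benjamini-Hochberg adjustment over 13837 genes gave an adjusted p of 0.481, past no threshold. In that comparison 0 of the 10 members and 0% of all genes passed an adjusted p of 0.05. At an unadjusted p under 0.05 there were 965 genes, among them 4 members, Spry2, Spry4, Etv5 and Fgfr1. With knockouts 1 and 2 alone Spry4 fell by 0.76 ± 0.10 (adjusted p 0.0043). With knockouts 3 and 4 alone it fell by 0.81 ± 0.06 (adjusted p 0.039). Both comparisons use the same control arrays, averaged by replicate number, although no pairing of parts by number was seen in controls. The control means had an SD of 0.02, and the SEs and p-values depend on that grouping. The differences do not. The second call was lost without control 1 (-0.80, adjusted p 0.0536), without knockout 3 (-0.87, 0.375) and without knockout 4 (-0.76, 0.356), with the difference about as large each time. In these fits 65, 0 and 0 of all genes passed, in that order. Between the knockout sets Spry4 differed by 0.06 ± 0.10 (knockouts 1 and 2 minus knockouts 3 and 4, adjusted p 0.634).

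**Figure D1:**
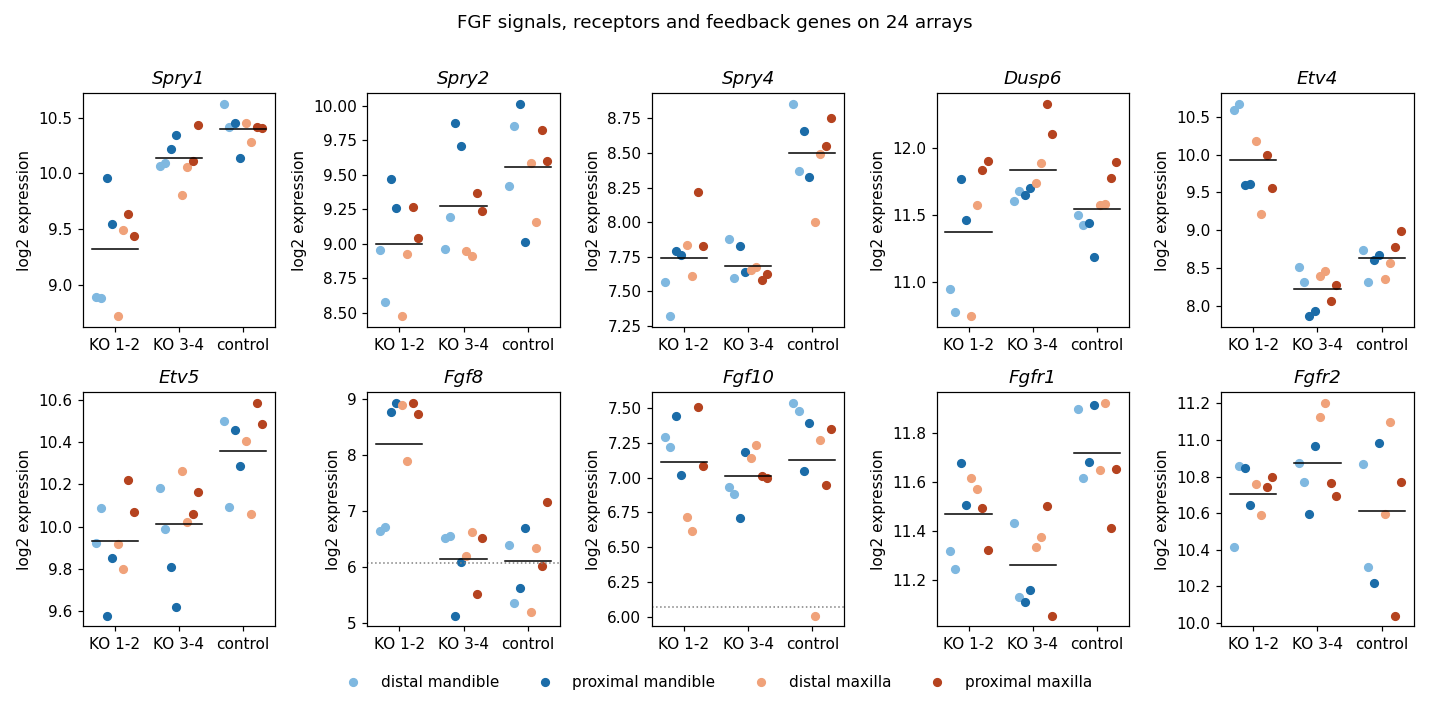
Log2 level of each of the 10 genes on every array, with 1 panel per gene and the knockout array sets left of the controls. Each point is 1 array; Spry4 is lower in both knockout sets than in controls, while Etv4 and Fgf8 are high in knockouts 1 and 2 alone.

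Of the members, 6 passed the threshold in knockouts 1 and 2 against control, 4 lower and 2 higher. The background there was wide: 52.6% of all genes passed, 31.7% lower and 20.9% higher. In knockouts 3 and 4 against control 1 member passed, Spry4, beside 1.56% of all genes. The median difference of the 10 members was -0.21 in knockouts 1 and 2 (all genes, -0.06) and -0.27 in knockouts 3 and 4 (all genes, -0.03). With that 3' to 5' gap as a covariate, 0 of all 13837 genes passed in either set, and so 0 members. Spry4 then differed by -2.40 ± 0.64 in knockouts 1 and 2 and by -0.66 ± 0.13 in knockouts 3 and 4 (adjusted p 0.805). In knockouts 1 and 2 Spry1 differed by -0.92 ± 0.98, Spry2 by -1.45 ± 1.39 and Fgf8 by 0.85 ± 2.62 in that fit, and Etv4 turned to -1.03 ± 0.68. The fit adds a term to means of 2 against 2, which leaves little to measure spread from. The gap also nearly follows genotype, at 0.71 to 1.498 in knockouts 1 and 2 and 0.13 to 0.22 in controls. The fit therefore cannot tell RNA quality from genotype, and its lost calls and changed signs decide nothing. With sex as a covariate, 2 members passed in knockouts 1 and 2, Spry1 and Etv4, among 2522 genes, and 0 members and 0 genes passed in knockouts 3 and 4. The sex fit too leaves little to measure spread from. Erythroid and endothelial markers moved with the set too. The mean of 7 erythroid markers ran from 11.14 to 11.90 in knockouts 1 and 2 and from 9.68 to 10.14 in knockouts 3 and 4, against 10.09 to 10.34 in controls. All 5 endothelial markers were lower in knockouts 1 and 2, where their mean was 8.27 (7.76 to 8.72), against 8.997 (8.74 to 9.34) in knockouts 3 and 4 and 9.10 (8.86 to 9.30) in controls. The part of these cells in the members' differences was not tested.

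Spry1, which restrains ERK signalling and is known for its role in kidney branching, was lower in knockouts 1 and 2. Its arrays ran from 8.71 (median 9.46) to 9.95 in knockouts 1 and 2 and from 9.80 (median 10.10) to 10.44 in knockouts 3 and 4, against 10.14 (median 10.41) to 10.62 in controls. All 8 arrays of knockouts 1 and 2 lay below all 8 control arrays, whereas knockouts 3 and 4 overlapped both. Such separation by array was not counted over all genes, of which 79.9% had means of these sets that do not overlap. Spry1 fell by 1.08 ± 0.09 in knockouts 1 and 2 (adjusted p 0.0019) and differed by -0.26 ± 0.10 in knockouts 3 and 4 (adjusted p 0.20). The knockout sets differed by -0.82 ± 0.08 (adjusted p 0.000612), in a comparison added after the data were seen that passed 64.9% of all genes and 5 of 10 members. The lowest levels were in the distal parts of knockouts 1 and 2, with 8.89 and 8.88 in the mandible and 8.71 and 9.49 in the maxilla. The proximal parts of the same knockouts read 9.95 and 9.54 in the mandible and 9.63 and 9.44 in the maxilla.

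Spry2, a Sprouty whose loss in mice gives a cleft palate, ran from 8.47 (median 8.997) to 9.47 in knockouts 1 and 2 and from 8.91 (median 9.22) to 9.88 in knockouts 3 and 4, against 9.01 (median 9.59) to 10.01 in controls. The arrays of all 3 sets overlapped, but the 4 knockout means, 9.04, 8.95, 9.29 and 9.26, lay below the control means of 9.71 and 9.40. Means that do not overlap between the genotypes were seen for 5 members (Spry1, Spry2, Spry4, Etv5 and Fgfr1) and for 24.1% of all genes. Spry2 fell by 0.56 ± 0.12 in knockouts 1 and 2 (adjusted p 0.018) and differed by -0.28 ± 0.12 in knockouts 3 and 4 (adjusted p 0.22). The first call was lost when each array was centred on its median (0.0527), without knockout 1 (0.0904) and without knockout 2 (0.107). A dimmer Spry2 probe set gave a larger difference in both sets. It averaged 6.02 in knockouts 1 and 2 and 5.95 in knockouts 3 and 4, against 7.30 in controls, differences of -1.28 ± 0.18 (adjusted p 0.00217 over all probe sets) and -1.36 ± 0.10 (0.0284). The means of knockouts lay under the filter level of 6.07, so the size of that difference is not well measured.

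Dusp6, the phosphatase that removes the activating phosphates of ERK, differed in sign between the knockout sets when set against control, without passing in either. It averaged 11.32, 11.42, 11.83 and 11.84 in knockouts 1 to 4, against 11.57 and 11.52 in controls. Knockouts 1 and 2 lay below the controls and knockouts 3 and 4 above them. Means of 2 against 2 that do not overlap were common, at 79.9% of all genes for knockouts 1 and 2 and 60.8% for knockouts 3 and 4. The difference was -0.17 ± 0.08 in knockouts 1 and 2 (adjusted p 0.12) and 0.29 ± 0.05 in knockouts 3 and 4 (adjusted p 0.082). The knockout sets differed from each other by -0.46 ± 0.07 (adjusted p 0.00237). Its promoter window, shown above, holds the most ETS cores of the 3 printed.

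Etv4 and Etv5 (also called Pea3 and Erm) are the ETS factors induced by FGF, and in knockouts 1 and 2 Etv4 was higher and Etv5 lower. Etv4 ran from 9.22 (median 9.81) to 10.68 in knockouts 1 and 2 and from 7.86 (median 8.30) to 8.52 in knockouts 3 and 4, against 8.32 (median 8.64) to 8.99 in controls. Every array of knockouts 1 and 2 was above every other array, a separation not counted over all genes. Knockouts 3 and 4 reached down from the control range. Etv4 was higher by 1.30 ± 0.12 in knockouts 1 and 2 (adjusted p 0.0023) and differed by -0.40 ± 0.05 in knockouts 3 and 4 (adjusted p 0.054). The knockout sets differed by 1.70 ± 0.12 (adjusted p 0.000212). Etv5 averaged 9.91, 9.95, 10.08 and 9.95 in knockouts, against 10.48 and 10.23 in controls. It fell by 0.43 ± 0.11 in knockouts 1 and 2 (adjusted p 0.026) and differed by -0.34 ± 0.11 in knockouts 3 and 4 (adjusted p 0.16). The call for Etv5 was lost without knockout 1 (0.139), without knockout 2 (0.106), without control 1 (0.0651) and with median centring (0.0910).

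Fgf8, the epithelial ligand of the first arch, was high on 6 of the 8 arrays of knockouts 1 and 2. There it read 6.64 and 6.72 in the distal mandible, 8.77 and 8.94 in the proximal mandible, 8.90 and 7.90 in the distal maxilla and 8.93 and 8.74 in the proximal maxilla. Knockouts 3 and 4 ran from 5.13 (median 6.355) to 6.62, and controls from 5.19 (median 6.19) to 7.17. These last ranges overlap and lie about the filter level, which Fgf8 passed on 18 of 24 arrays. Fgf8 was higher by 2.09 ± 0.22 in knockouts 1 and 2 (adjusted p 0.0027) and differed by 0.04 ± 0.29 in knockouts 3 and 4 (adjusted p 0.94). Since the controls sit near the filter level, the size of the rise is not well measured. The knockout sets differed by 2.05 ± 0.20 (adjusted p 0.000548). Epithelial markers, 12 of 12 above the filter level, averaged 10.49 (10.06 to 10.96) in knockouts 1 and 2 and 10.56 (10.31 to 10.99) in knockouts 3 and 4, against 10.11 (9.48 to 10.85) in controls. Their part in the Fgf8 level was not tested.

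The distal mandible of knockouts 1 and 2 was the part with the lowest Fgf8 of that set and the highest Etv4. Etv4 read 10.60 and 10.68 there, 9.60 and 9.61 in the proximal mandible, 10.18 and 9.22 in the distal maxilla and 9.9995 and 9.56 in the proximal maxilla. Ligand and target gene thus did not run in the same order across the parts. Over the 24 arrays Etv4 and Fgf8 correlated at r = 0.683, and at r = -0.113 once the mean of each array set was taken off. The arrays of a set share their level of spike-in controls and RNA quality, and these correlations are descriptions.

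**Figure D2:**
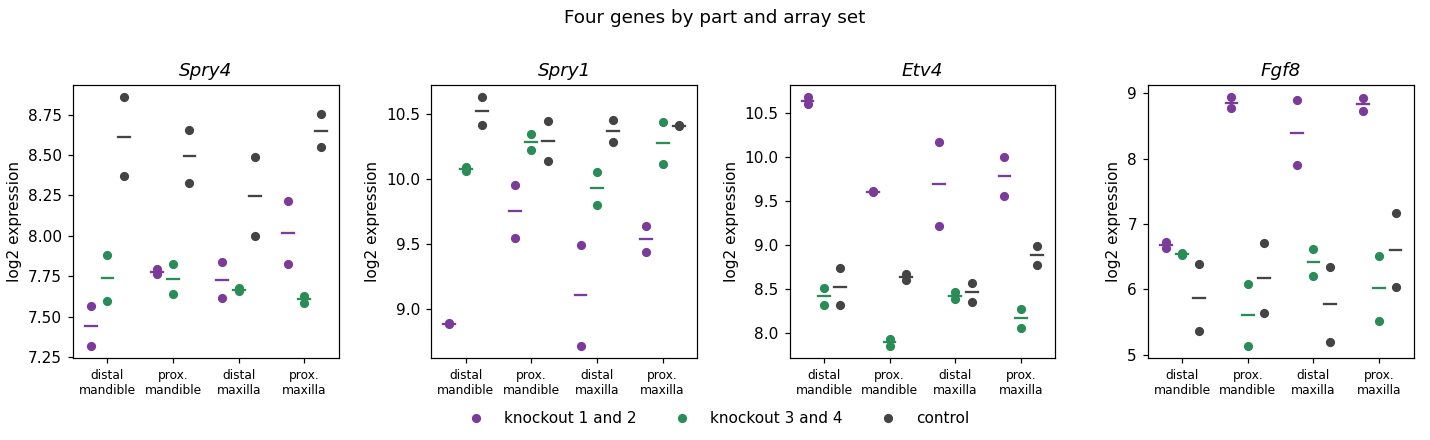
Log2 level of Spry4, Spry1, Etv4 and Fgf8 in each part, by array set, with knockouts left of controls. Each point is 1 array and each bar the mean of 2 arrays; in the distal mandible of knockouts 1 and 2, Etv4 is at its highest (10.60 and 10.68) and Fgf8 is at 6.64 and 6.72.

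Fgf10, the mesenchymal ligand, was low in all groups and did not pass the threshold in any of the 15 comparisons. It averaged 7.24, 6.98, 6.95 and 7.07 in knockouts 1 to 4, against 6.88 and 7.37 in controls, so the groups overlapped. The difference was -0.02 ± 0.19 in knockouts 1 and 2 (adjusted p 0.94) and -0.12 ± 0.18 in knockouts 3 and 4 (adjusted p 0.71). In the distal maxilla control 1 read 6.01, the lowest value of Fgf10 on any array, beside 7.27 for control 2.

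Fgfr1, a main FGF receptor of facial mesenchyme, averaged 11.52, 11.41, 11.34 and 11.18 in knockouts 1 to 4, against 11.66 and 11.78 in controls. All 4 knockout means lay below both control means. The difference was -0.25 ± 0.08 in knockouts 1 and 2 (adjusted p 0.061) and -0.46 ± 0.09 in knockouts 3 and 4 (adjusted p 0.083), neither past the threshold. Fgfr2, whose splice forms divide between epithelium and mesenchyme, averaged 10.69, 10.72, 10.84 and 10.91 in knockouts and 10.43 and 10.79 in controls. It differed by 0.10 ± 0.13 in knockouts 1 and 2 (adjusted p 0.58) and by 0.26 ± 0.14 in knockouts 3 and 4 (adjusted p 0.29).

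**Figure D3:**
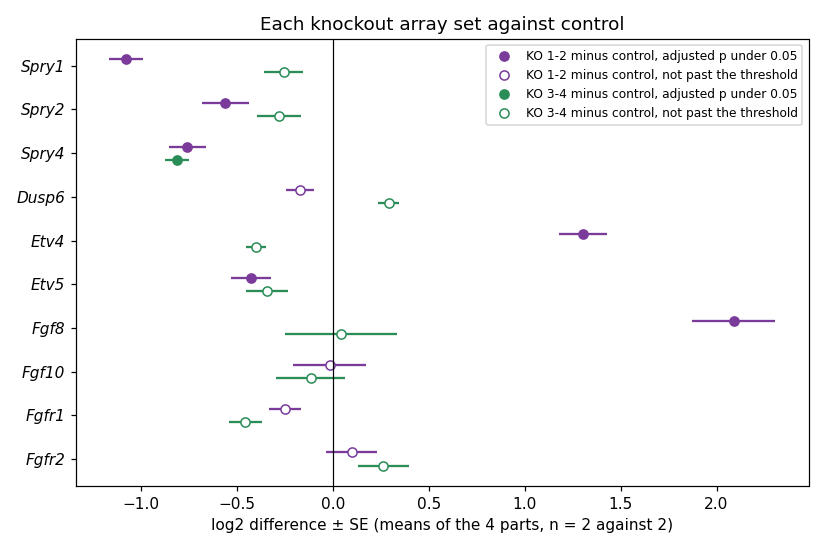
Log2 difference from control (x axis, with SE bars) of each gene for knockouts 1 and 2 (upper point) and knockouts 3 and 4 (lower point), from means of the 4 parts, 2 against 2. Filled points passed an adjusted p of 0.05; Spry4 is filled for both sets, at -0.76 and -0.81.

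Other probe sets of the same genes gave unlike sizes in knockouts 1 and 2, with p-values adjusted over all 45037 probe sets that are no controls. A second Etv5 probe set fell by 1.39 ± 0.09 (adjusted p 0.000159) and the dimmest by 1.16 ± 0.09 (0.000266), beside the 0.43 of the brightest. In knockouts 3 and 4 the same Etv5 probe sets differed by -0.03 and -0.25, past no threshold. A second Fgfr2 probe set fell by 1.64 ± 0.17 in knockouts 1 and 2 (adjusted p 0.00068), where the brightest Fgfr2 probe set differed by 0.10. A second Fgfr1 probe set fell by 0.86 ± 0.11 (0.00143), and the third differed by -0.19. The second Spry4 probe set fell by 0.55 ± 0.08 in knockouts 1 and 2 (0.00271) and differed by -0.12 ± 0.08 in knockouts 3 and 4 (0.44). Spry4 in knockouts 3 and 4 thus rests on its brightest probe set, and the mean of its probe sets gave -0.33 with an adjusted p of 0.0765. The second Etv4 probe set was higher by 0.94 ± 0.13 in knockouts 1 and 2 (0.00202), in the direction of the brightest, but passed the filter level on 4 arrays.

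**Figure D4:**
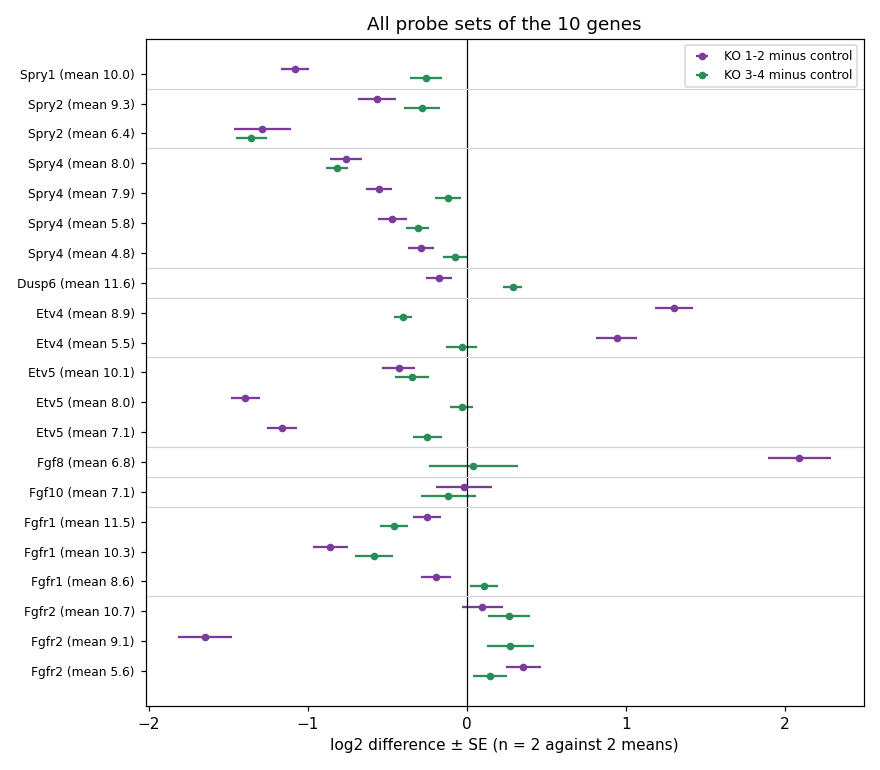
Log2 difference from control (x axis, with SE bars) for each of the 21 probe sets, grouped by gene from brightest to dimmest with the mean log2 level over 24 arrays beside the name. Knockouts 1 and 2 (upper points) differ among probe sets of Etv5 and Fgfr2. Of the genes with several probe sets, Spry2, Spry4 and Etv5 have all of them left of 0 in both sets.

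Within single parts, 1 fit of all 24 arrays with a mean for each genotype and part called 0 members in the distal mandible (background 0.0145% of genes), proximal mandible (0%), distal maxilla (0.00723%) and proximal maxilla (0.00723%). Spry4 differed by -1.02 ± 0.19 in the distal mandible (adjusted p 0.076), -0.74 ± 0.19 in the proximal mandible (0.25), -0.55 ± 0.19 in the distal maxilla (0.89) and -0.84 ± 0.19 in the proximal maxilla (0.21). That fit counts the gap between the knockout sets as spread. With a mean for each array set and part, 5 members passed in the distal mandible (background 23%), 2 in the proximal mandible (11.5%), 1 in the distal maxilla (3.68%) and 1 in the proximal maxilla (4.09%). Spry4 then passed in the distal mandible (adjusted p 0.00199), the proximal mandible (0.0154) and the proximal maxilla (0.0161), and not in the distal maxilla (0.0859). Etv5 passed in the proximal mandible, at -0.66 ± 0.14 (0.00986). Spry1 passed in the distal mandible, at -1.04 ± 0.18 (0.00256), and in the distal maxilla, at -0.85 ± 0.18 (0.0228). In the distal mandible Spry2 (-0.72 ± 0.23, 0.0386), Etv4 (1.00 ± 0.20, 0.00492) and Fgfr1 (-0.48 ± 0.14, 0.0246) passed as well. The Etv4 value averages 2.11 in knockouts 1 and 2 and -0.11 in knockouts 3 and 4, so its rise belongs to knockouts 1 and 2 alone. This fit leaves the gap between the knockout sets out of the spread. With knockouts 1 and 2 alone in that fit, 6 members passed in the distal mandible (background 48.6%), 4 in the proximal mandible (39.1%), 3 in the distal maxilla (34.9%) and 4 in the proximal maxilla (28.5%). With knockouts 3 and 4 alone, Spry4 passed in the distal mandible (-0.88 ± 0.20, 0.041, background 1.49%) and the proximal maxilla (-1.04 ± 0.20, 0.014, background 1.29%), and no other member passed in any part (background 0.795% in the proximal mandible and 1.06% in the distal maxilla).

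Between mandible and maxilla, 0 members passed in knockouts (background 2.36% of genes) and 0 in controls (0.181%). With the replicate number as a block the knockout comparison passed 868 genes, against 326 without it, and still 0 members. Pitx1, a mandibular gene that checks the dissection, was higher in the mandible by 2.09 ± 0.21 in knockouts (adjusted p 7.2e-05) and by 2.16 ± 0.30 in controls (0.0053). Markers of other tissues differed between the jaws as well. In knockouts all 7 skeletal muscle markers were above 0 for mandible minus maxilla (4 passed, median 2.94) and all 7 neuron markers below 0 (4 passed, median -2.39), and their part in the jaw differences given here was not tested. Dusp6 showed the same difference in both genotypes, -0.32 ± 0.16 in knockouts (adjusted p 0.51) and -0.32 ± 0.22 in controls (adjusted p 1), without passing. Its highest arrays in each set were those of the proximal maxilla, at 11.83 and 11.90 in knockouts 1 and 2, 12.33 and 12.10 in knockouts 3 and 4, and 11.78 and 11.89 in controls. Fgf10 differed by 0.05 ± 0.16 in knockouts (adjusted p 0.98) and 0.47 ± 0.23 in controls (0.85). The genotype by jaw interaction passed in 0 genes and 0 members (background 0%), with 107 genes and 0 members at an unadjusted p under 0.05.

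Between distal and proximal ends, 0 members passed in knockouts (background 0.0361%) and 0 in controls (background 0%, 70 genes at an unadjusted p under 0.05). With the replicate block 14 genes passed in knockouts, against 5 without it, and again 0 members. Spry2 had distal levels of 8.95, 8.58, 8.96 and 9.19 in the knockout mandible and 8.47, 8.92, 8.95 and 8.91 in the knockout maxilla. Its proximal levels were 9.47, 9.26, 9.88 and 9.71 in the knockout mandible and 9.26, 9.04, 9.37 and 9.24 in the knockout maxilla. Within each jaw every distal knockout array was below every proximal one, a separation not counted over all genes. The difference over knockouts was -0.54 ± 0.14 (adjusted p 0.42), at -0.53 in knockouts 1 and 2 and -0.54 in knockouts 3 and 4. In controls it was -0.11 ± 0.20 (adjusted p 1). Dusp6 differed by -0.48 ± 0.16 over knockouts (adjusted p 0.67). With array set in the fit that value was -0.48 ± 0.10 (0.0486, background 0.463%), made up of -0.73 ± 0.14 in knockouts 1 and 2 (0.0289, background 0.499%) and -0.22 ± 0.14 in knockouts 3 and 4 (0.86). The genotype by end interaction passed in 0 genes and 0 members (background 0%), with 157 genes and 0 members at an unadjusted p under 0.05.

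Within the knockout mandible 0 members passed between the ends (background 0.0578%), and within the knockout maxilla 0 passed (0.00723%, or 0.065% with array set in the fit). With the replicate block these backgrounds were 41 and 5 genes, again with 0 members. Etv4 differed by 0.78 ± 0.60 between the distal and the proximal mandible (adjusted p 1). With array set in the fit the value was 0.78 ± 0.17 (0.036, background 1.09%), and distal arrays were above proximal ones in both sets: 10.60 and 10.68 against 9.60 and 9.61 in knockouts 1 and 2, and 8.52 and 8.32 against 7.86 and 7.93 in knockouts 3 and 4. In controls the mandibular arrays overlapped, at 8.74 and 8.32 distally and 8.60 and 8.67 proximally. Such orders of arrays were not counted over all genes. Fgf8 in knockouts 1 and 2 ran the other way, by -2.17 ± 0.53 (adjusted p 0.074).

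Other genes were read from lists of Fgf genes, receptors and cofactors, ERK cascade genes, and further feedback and target genes. Their counts stand against all genes, of which 20.9% were higher and 31.7% lower in knockouts 1 and 2 (median -0.06) and 1.56% passed in knockouts 3 and 4 (median -0.03). Of 20 other Fgf genes 10 passed the filter, among them Fgf11, Fgf12 and Fgf13, which are mainly intracellular and not classical receptor ligands. Of the 10, 6 were lower and 0 higher in knockouts 1 and 2, and 1 lower and 0 higher in knockouts 3 and 4. Their median difference was -0.44 in knockouts 1 and 2 and -0.27 in knockouts 3 and 4. The gene lower in both was Fgf18, a ligand that in mice promotes growth of skeletal and palatal mesenchyme. It averaged 7.01, 7.22, 8.21 and 8.11 in knockouts 1 to 4, against 9.19 and 9.10 in controls, with no overlap, as for 24.1% of all genes. It fell by 2.03 ± 0.10 in knockouts 1 and 2 (adjusted p 0.0015) and by 0.99 ± 0.07 in knockouts 3 and 4 (adjusted p 0.035). Fgf7, a mesenchymal ligand of the epithelial form of Fgfr2, fell by 1.49 ± 0.16 in knockouts 1 and 2 (0.003), and its 4 knockout means of 6.23, 6.48, 7.17 and 7.60 lay below the control means of 8.04 and 7.66. In the knockouts Fgf7 was higher in the mandible than in the maxilla, by 1.77 ± 0.43 (0.032), as was Fgf5, by 1.51 ± 0.37 (0.033). Fgf5 averaged 5.21, 5.57, 5.30 and 5.88 in knockouts 1 to 4, all under the filter level. The size of its jaw difference is therefore not well measured.

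Of 20 receptors and cofactors that passed the filter, 3 were higher and 10 lower in knockouts 1 and 2, beside 20.9% and 31.7% of all genes, and 0 higher and 1 lower in knockouts 3 and 4. The median differences were -0.27 and -0.01 in these sets. Fgfr3 fell by 0.86 ± 0.09 in knockouts 1 and 2 (0.0026), and Hs6st1, an enzyme that adds sulphate to heparan sulphate, fell by 0.74 ± 0.07 in knockouts 3 and 4 (0.049). Fgfr4 was 1.62 ± 0.31 higher in the mandible than in the maxilla of knockouts (0.0069). Of 12 ERK cascade genes, 2 were higher and 5 lower in knockouts 1 and 2, together close to the 52.6% of all genes, with a median of -0.20, and 0 passed in knockouts 3 and 4, with a median of -0.05. Map2k2, which encodes the kinase MEK2, was higher by 0.66, and Map2k1, which encodes MEK1, fell by 0.67 (0.004 and 0.0046).

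Of 19 further feedback and target genes, 3 were higher and 7 lower in knockouts 1 and 2, together also close to the 52.6% of all genes, with a median of -0.29, and 0 passed in knockouts 3 and 4, with a median of -0.02. Spred2, a Sprouty-related inhibitor of Ras-ERK signalling, averaged 9.89, 9.99, 10.95 and 10.996 in knockouts 1 to 4, against 10.94 and 10.92 in controls. It fell by 0.99 ± 0.07 in knockouts 1 and 2 (0.0017), while knockouts 3 and 4 lay above both controls. Myc fell by 1.35 ± 0.07 in knockouts 1 and 2 (0.0015).

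First arch genes known in mouse to depend on epithelial FGF8 numbered 10, all above the filter level. In knockouts 1 and 2, 6 were lower and 0 higher, beside 31.7% and 20.9% of all genes. In knockouts 3 and 4, 1 was lower and 0 higher, beside 1.56% of all genes called. Their medians were -0.44 and -0.16. Lhx6, a LIM homeobox gene of the oral mesenchyme, fell by 1.04 ± 0.12 in knockouts 1 and 2 (adjusted p 0.0033), the set in which Fgf8 was high. Gsc averaged 9.32, 9.24, 9.07 and 9.13 in knockouts 1 to 4, against 9.70 and 9.77 in controls. It fell by 0.45 ± 0.07 in knockouts 1 and 2 (0.0078) and by 0.64 ± 0.06 in knockouts 3 and 4 (0.049). In knockouts 4 of the 10 were higher in the mandible than in the maxilla, where 2.36% of all genes passed, among them Gsc (1.502 ± 0.26, 0.0036) and Dlx5 (1.28 ± 0.22, 0.004). Barx1 (-1.75 ± 0.30, 0.043) and Dlx1 (-2.12 ± 0.33, 0.021) were lower in the distal than in the proximal knockout jaws, where Spry2 and Dusp6 differed by -0.54 and -0.48 without passing.

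Among the members, with the mean of each array set removed, Spry1 followed Dusp6 (r = 0.726) and Spry2 (r = 0.679) over the 24 arrays and ran against Etv4 (r = -0.629). The Sprouty genes and Etv4, all known targets of FGF, did not vary as 1 block. Spry4 was most like Fgf8 (r = 0.582). The genes that are no members and were most like the mean of the 6 feedback genes were Iqca (r = 0.70), Vps13d (0.69), Hagh (0.63), Ube2e3 (0.63) and Mycn (0.62). Fgf8 was most like Rangap1 (0.80), Sac3d1 (0.78) and Rarg (0.75), and Fgf10 was most like Pak6 (0.80), Col17a1 (0.80), a collagen of epithelial anchoring junctions, and Wnt6 (0.78), a Wnt ligand. The arrays share part and RNA quality, and each value is the highest of 13837 genes ranked.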

How the data were processed

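Per the submitters' processing notes, the deposited log2 expression values were made by the authors with RMA; neither a version nor whether all arrays shared 1 run is stated. Probe sets of 1 gene symbol (34945 of 45101) gave 18193 genes, each read from its brightest probe set. Names came from the platform annotation and RefSeq (GRCm38.p6). Genes above the 40th percentile (controls left out) on 2 or more arrays were tested (13837) with limma 3.58.1 in R 4.3.3 (lmFit, eBayes), 2-sided, with Benjamini-Hochberg adjustment over all of them. Knockout against control used means of the 4 parts per replicate number; parts, jaws, ends and interactions were contrasts of 1 fit of 24 arrays. Array sets were told apart by their spike-in controls and 3' to 5' gap, never by the genes tested. The script was tested on simulated data. No arrays were duplicates (highest correlation 0.997). All 10 members are named, with up to 3 genes per list and comparison by smallest p among those that passed. The members and lists were chosen with earlier results of these data known. The number of arrays limits the precision. Deviations from group means of same-numbered arrays of different parts correlated from 0.378 to 0.83 in knockouts. Same-numbered knockout arrays share an array set, and the deviations hold the gap between the sets, so that range cannot show pairing. For 13 of 16 knockout arrays the closest array of another part had the same number. Replicate numbers were taken to pair parts in knockouts, which remains an assumption. By sex, the proximal maxilla of knockouts 1 and 2 is not from the same embryo as the other parts of its number. SEs and fits that use these numbers depend on that grouping. In controls the correlations ran from -0.681 to 0.584 and across genotypes from -0.5 to 0.222, so no pairing was read from them there. Numbers still grouped the control arrays into the means of the genotype tests. Blocks by number in controls or across genotypes were used only in alternative fits.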

Additional observations from a re-analysis of the deposited data

Results flagged for a closer look

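In the knockout distal maxilla, Spry2 on the array numbered 1 read 8.47, below the 8.92, 8.95 and 8.91 of knockouts 2, 3 and 4, and its gap to the nearest array passed Dixon's 95% limit. Chance flags about 1 in 20 groups, and 40 groups of members were examined. The same array had the largest 3' to 5' gap of Gapdh and beta-actin of all 24 arrays, 1.498, and its part in the low Spry2 level was not tested.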

How the results depend on the processing

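The counts of members that passed are given first. In knockouts 3 and 4 against control, where 1 passed, the count was 2 with a filter at the 60th percentile, 4 with a mean-variance trend, 0 with the 3' to 5' covariate, 0 with a sex covariate, 2 in 1 fit of the 3 sets, and 0 to 5 with a replicate left out. In knockouts 1 and 2, where 6 passed, it was 0 with the 3' to 5' covariate and 2 with sex, fits that leave little to measure spread from. Over all parts the 3' to 5' covariate called 2, Spry4 (-0.82, adjusted p 0.0160) and Fgfr1 (-0.44, 0.0417), where 0 passed. It also called 2 in the distal mandible, 1 in the proximal mandible, 1 in the proximal maxilla and 1 between the knockout ends. A mean for each array set and part called 5 in the distal mandible, 2 in the proximal mandible, 1 in the distal maxilla, 1 in the proximal maxilla, 1 between the knockout ends and 1 between the ends of the knockout mandible. Knockouts 1 and 2 alone called 6, 4, 3 and 4 in the distal mandible, proximal mandible, distal maxilla and proximal maxilla (all genes 48.6%, 39.1%, 34.9% and 28.5%), and 1 between ends. Knockouts 3 and 4 alone called 1 in the distal mandible and 1 in the proximal maxilla. Of all 227 alternative counts, 198 were within 1.5 times the reported count. Most comparisons had 0 members as reported, and 0 again counts as within that range. The total therefore says little about the calls, and in knockouts 1 and 2 the counts ran from 0 to 7.

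Among differences larger than their own SE as reported, those that changed sign were Fgfr2 over all parts with the mean of its probe sets (-0.085), and, with a replicate left out, Fgfr2 in the proximal maxilla (-0.020 to 0.709), Fgfr2 between control ends (-0.174 to 0.603) and Fgf10 in the distal maxilla (-0.344 to 0.917), each lowest without control 1, and, with the 3' to 5' covariate in knockouts 1 and 2, Dusp6 (0.54) and Etv4 (-1.03). With knockouts 3 and 4 alone they were Fgf8 in the proximal mandible (-0.56), Etv4 in the distal mandible (-0.11), Spry4 between the ends in knockouts (0.031) and in the mandible (0.0027), and Etv5 between the maxillary ends (0.031). Differences within their SE changed sign in 132 further cases, such as Spry2 in the proximal mandible (-0.44 to 0.57 with a replicate left out). The causes were not tested, and the 3' to 5' covariate in knockouts 1 and 2 cannot tell RNA quality from genotype.

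With a block that paired knockout and control by number, knockouts 1 and 2 against control still called 6 members (6393 genes). The correlations across genotypes gave no ground for that pairing. The replicate blocks within genotype, fitted in other comparisons, called 0 members. No block changed a member's call. Median centring took a common shift off all genes, of -0.108 over all parts and -0.169 in knockouts 1 and 2. The shift was -0.128 in the distal mandible and -0.118 in the distal maxilla. Falls in knockouts thus became smaller, such as Spry2 in knockouts 1 and 2, from -0.56 to -0.39. Fgf8 and Fgf10 lie near the filter level, where the arrays measure differences least well.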
